A study of Homo sapiens with 2 samples.

Results

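The miR-200 family comprises hsa-miR-200a-3p, hsa-miR-200b-3p, hsa-miR-200c-3p, hsa-miR-141-3p and hsa-miR-429, and these 5 miRNAs were taken by name from the 2549 human miRNAs of the array. They had 10 of its 5893 probes, 2 for each miRNA, and 100 of its 50980 spots that were not controls, 10 for each probe. HepG2, a line established from a human liver tumour, received the adenoviral vector Ad-uc.372 or the adenoviral control Ad-NC. RNA was taken after 48 h in both cases. Both groups carried an adenoviral vector, and no cells without a vector were included. The title of the series names overexpression of uc.372, a transcript from an ultraconserved element of the genome, whereas the sample labels give the name of the vector alone. Each condition had 1 array, so no test across samples could be made, no difference below has a replicate check, and precision is limited by the number of arrays. Both arrays lay on the same slide and were scanned together.

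The members of this family are best known as guardians of the epithelial state. They bind the mRNAs of ZEB1 and ZEB2, a pair of transcription factors that switch off E-cadherin and drive the epithelial-mesenchymal transition, and ZEB1 and ZEB2 in turn repress transcription of the miRNA genes. A miRNA finds its targets mainly through its seed, the bases 2 to 8 from the 5′ end, and the family carries 2 seeds that differ in a single base.

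The mature sequences are shown because the clusters in the genome and the groups by seed cut across each other. All 5 were found in the RefSeq miRNA table of GRCh38.p14, and the seed is in capitals.
hsa-miR-200b-3p: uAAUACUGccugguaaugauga
hsa-miR-429: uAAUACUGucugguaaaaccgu
hsa-miR-200c-3p: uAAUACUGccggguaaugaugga
hsa-miR-200a-3p: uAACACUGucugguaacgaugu
hsa-miR-141-3p: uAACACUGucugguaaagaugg
The first 3 share the seed AAUACUG and the last 2 the seed AACACUG. No other miRNA of the array with a sequence in that table had either seed. By position, miR-200b-3p (chr1:1167160-1167181), miR-200a-3p (chr1:1167916-1167937) and miR-429 (chr1:1169055-1169076) form a cluster on the plus strand of chromosome 1, within the long non-coding host gene MIR200BHG. miR-200c-3p (chr12:6963742-6963764) and miR-141-3p (chr12:6964155-6964176) lie on the plus strand of chromosome 12, within the host gene MIR200CHG. These positions are those of GRCh38.p14, since the array files name their grid's build, hg19, but give no coordinates. Each cluster therefore holds both seeds. The closest relatives lie in different clusters, counting positions from 1 at the 5′ end. miR-200c-3p differed from miR-200b-3p by U11G and A22G and by 1 further base at its 3′ end, and miR-141-3p differed from miR-200a-3p by C17A and U22G. Within the cluster on chromosome 1, miR-200b-3p and miR-429 differed at 6 of 22 positions despite their common seed.

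A spot was counted as well above background when the Feature Extraction software flagged it, and a probe when at least 50% of its spots were flagged after outlier spots were left out. The dimmest flagged spot, called the limit below, had a processed signal (the brightness of a spot after background subtraction, before any scaling between arrays) of 21.1 with Ad-NC and 17.3 with Ad-uc.372. As background, 989 and 982 spots of negative control probes had a median of 3.83 with Ad-NC and 3.41 with Ad-uc.372 and a 95th percentile of 10.7 and 9.40. None of them was flagged on either array. Probes for different miRNAs bind with different strength, so a brighter probe does not show a more abundant miRNA, and the signals below are read against the limit only.

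In these cells the cluster on chromosome 1 gave the clearer signal. All 3 of its miRNAs were well above background on both arrays, by 5 of 6 probes with Ad-NC and by 6 of 6 with Ad-uc.372. Clear of the limit on both arrays were both probes of miR-200b-3p and 1 of miR-200a-3p. With Ad-NC the probes of miR-429 were at 1.30 and 1.08 times the limit, and the other probe of miR-200a-3p at 0.71 times. Neither miRNA of the cluster on chromosome 12 was well above background with Ad-NC, by 0 of 4 probes, and both were with Ad-uc.372, by 2 of 4 probes that lay close to the limit. In all, 3 of the 5 members passed with Ad-NC, where 9.26% of all miRNAs on the array did, and 5 of the 5 passed with Ad-uc.372, where 10.2% did. In spots, 46 of 59 (78.0%) of the chromosome 1 cluster were flagged with Ad-NC and 56 of 56 with Ad-uc.372, against 4 of 39 (10.3%) and 12 of 35 (34.3%) of the chromosome 12 cluster. Over all spots these shares were 7.65% and 8.48%. The difference between the clusters has no replicate check and was not tested.

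**Figure D1:**
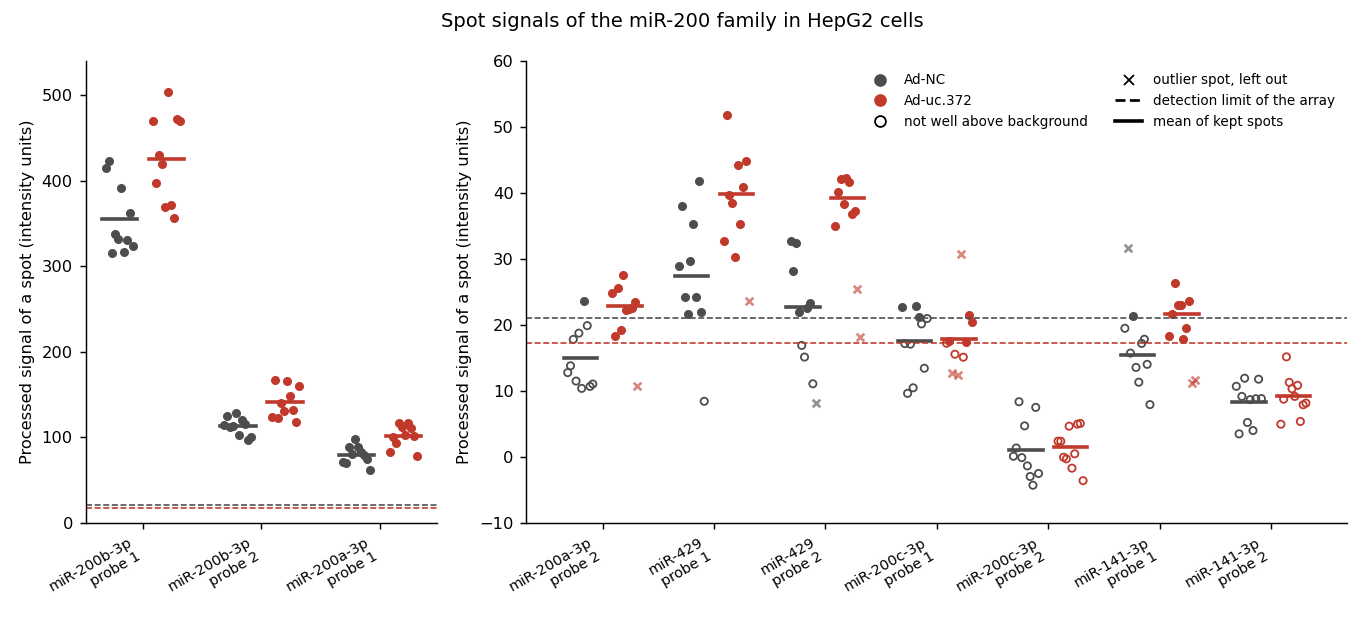
Processed signal of every spot of the 10 probes, with the probes in columns and the signal in intensity units on linear axes (the left panel has a wider range). Filled points are spots well above background, open points are spots that were not, and crosses are outlier spots left out. Thick bars are means of the kept spots and dashed lines are the limits of each array. The spots of miR-200b-3p and of probe 1 of miR-200a-3p all lie above both limits. Those of miR-200c-3p and miR-141-3p lie around or under them, and miR-429 and probe 2 of miR-200a-3p also have spots under the limit with Ad-NC.

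miR-200b-3p was clear of the limit by both probes. The 10 spots of its first probe ranged from 315.4 to 422.9 with Ad-NC, with a median of 335.3, and from 356.4 to 503.3 with Ad-uc.372, with a median of 425.0. Those of its second probe ranged from 97.2 to 128.6 (median 114.0) and from 118.1 to 166.8 (median 136.2). All 20 spots were flagged on both arrays. The means of the first probe, 354.9 ± 40.9 (SD over spots) and 426.1 ± 51.4, were 16.8 and 24.7 times the limit of their arrays, and the means of the second, 113.1 ± 10.4 and 141.0 ± 18.4, were 5.36 and 8.17 times. The spots of the arrays overlapped on both probes, and before scaling 5 and 7 of the 10 spots with Ad-uc.372 exceeded the brightest spot with Ad-NC. After the scaling described below 1 and 3 did, and 1 spot of the first probe lay below the dimmest with Ad-NC.

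miR-200a-3p, of the same cluster but with the other seed, was measured on both arrays by 1 of its 2 probes. The 10 spots of that probe ranged from 61.7 to 98.1 with Ad-NC, with a median of 80.0, and from 78.7 to 116.5 with Ad-uc.372, with a median of 102.0. All of them were flagged, and the means of 79.8 ± 10.8 and 101.5 ± 13.3 were 3.78 and 5.88 times the limit. The other probe lay at the limit, with a mean of 15.04 ± 4.66 and 1 of 10 spots flagged with Ad-NC, against 22.9 ± 2.94 and 9 of 9 with Ad-uc.372. Both probes were thus brighter with Ad-uc.372 before scaling, with overlapping spots. After scaling, 2 of the 10 spots of the first probe with Ad-uc.372 exceeded the brightest with Ad-NC. On the other probe 0 of 9 did and 6 lay below the dimmest, where 9 of the 10 spots with Ad-NC had been raised to the limit.

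miR-429, the third member of the cluster, was well above background by both probes on both arrays, with means 1.30 and 1.08 times the limit with Ad-NC and 2.31 and 2.27 times with Ad-uc.372. Spots of its first probe ranged from 8.44 to 41.8 with Ad-NC (median 26.6, 9 of 10 flagged) and from 30.3 to 51.8 with Ad-uc.372 (median 39.7, 9 of 9 flagged). Spots of its second probe ranged from 11.1 to 32.8 (median 22.5, 6 of 9 flagged) and from 35.0 to 42.2 (median 39.2, 8 of 8 flagged). On this second probe all 8 kept spots with Ad-uc.372 exceeded the brightest kept spot with Ad-NC before scaling, and after scaling 4 did. Before scaling, 2 outlier spots with Ad-uc.372, at 18.2 and 25.4, lay within the range with Ad-NC. How often kept spots separate in this way over all probes of the array was not counted. The reference used for scaling, given below, was also brighter with Ad-uc.372. On the first probe, 3 of 9 kept spots with Ad-uc.372 exceeded the brightest with Ad-NC before scaling and 1 after it. There, 1 outlier spot with Ad-uc.372 was at 23.6. The mean of each probe was higher with Ad-uc.372 before scaling.

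miR-200c-3p lay at the limit by its brighter probe and within the background by the other. The brighter probe had a mean of 17.6 ± 4.92 over 10 spots with Ad-NC, ranging from 9.64 to 22.9 with a median of 18.7, and 17.8 ± 2.36 over 7 spots with Ad-uc.372, ranging from 15.1 to 21.5 with a median of 17.5. The signal was thus nearly the same on both arrays, at a ratio of 1.01 before scaling, while the limit was lower with Ad-uc.372, and 3 of 10 spots were flagged with Ad-NC against 4 of 7 with Ad-uc.372. A further 3 spots of this probe were outliers with Ad-uc.372, at 12.4, 12.7 and 30.7. The other probe had means of 1.09 ± 4.40 and 1.44 ± 2.97 with no spot flagged, and 76.3% and 71.3% of the negative control spots were at least as bright as these means.

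miR-141-3p was likewise close to the limit by 1 probe only. That probe had a mean of 15.4 ± 4.16 over 9 spots with Ad-NC, ranging from 7.94 to 21.3 with a median of 15.7, and 21.7 ± 2.90 over 8 spots with Ad-uc.372, ranging from 17.9 to 26.4 with a median of 22.3. Of these spots 1 of 9 was flagged with Ad-NC and 8 of 8 with Ad-uc.372, and 5 of the 8 were brighter than the brightest kept spot with Ad-NC before scaling. After spots under the limit were raised to it and scaled, as described below, 1 of the 8 exceeded that spot. By then 7 of them lay below the dimmest with Ad-NC, where 8 of the 9 kept spots had been raised to the limit. An outlier spot with Ad-NC, at 31.7, was brighter than every spot with Ad-uc.372, and 2 outlier spots with Ad-uc.372, at 11.3 and 11.7, were below the limit. The other probe, at 8.27 ± 3.05 and 9.20 ± 2.97, had no flagged spot, and 12.2% and 5.80% of the negative control spots were at least as bright. For both miR-200c-3p and miR-141-3p the bound on a rise was under 1-fold after scaling, so no fold is given.

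The software also makes a call per miRNA, which asks for less than the rule above. By this flag all 5 members were detected on both arrays, where 11.6% of all miRNAs were with Ad-NC and 12.5% with Ad-uc.372. Its total signal per miRNA, in units other than those of the spots, was 66.2 with Ad-NC and 80.2 with Ad-uc.372 for miR-200b-3p, 13.4 and 17.6 for miR-200a-3p, and 7.09 and 11.2 for miR-429. It was 2.49 and 2.52 for miR-200c-3p, and 2.18 and 3.07 for miR-141-3p. Whether the cluster on chromosome 12 is called absent or weakly present with Ad-NC therefore depends on the rule, whereas the cluster on chromosome 1 was detected by either. Whether the probes for miR-200c-3p and miR-141-3p also bind miR-200b-3p and miR-200a-3p, from which these differ at 2 positions each, was not tested.

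The opposite arms of the hairpins were not used in the choice of members. A hairpin is cut into a 5′ and a 3′ strand, and usually 1 of them is kept, in this family the 3′ strand. None of miR-200b-5p, miR-200a-5p, miR-200c-5p and miR-141-5p was well above background on either array. Of all miRNAs, 9.26% were with Ad-NC and 10.2% with Ad-uc.372, so none among so few arms does not show which strand was kept. The flag per miRNA, however, called miR-200b-5p and miR-200a-5p on both arrays, and miR-200c-5p and miR-141-5p on neither. That flag detected 11.6% of all miRNAs with Ad-NC and 12.5% with Ad-uc.372. The brightest of the 4 probes for miR-200b-5p had a mean of 15.9 ± 2.19 with Ad-NC and 17.0 ± 2.55 with Ad-uc.372, over 5 spots each, and none of the negative control spots was as bright. Of these spots 0 of 5 were flagged with Ad-NC and 2 of 5 with Ad-uc.372, where the mean was 0.99 times the limit. The brightest of the 3 probes for miR-200a-5p had 15.2 ± 6.82 and 11.8 ± 4.71 over 7 spots, with 1 of 7 flagged on each array. For miR-200c-5p the highest mean of a probe was 2.03 with Ad-NC and 0.785 with Ad-uc.372, and for miR-141-5p it was 3.11 and 0.177, all below the median of the negative controls. The array lists miR-429 under 1 name, with no arm given.

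**Figure D2:**
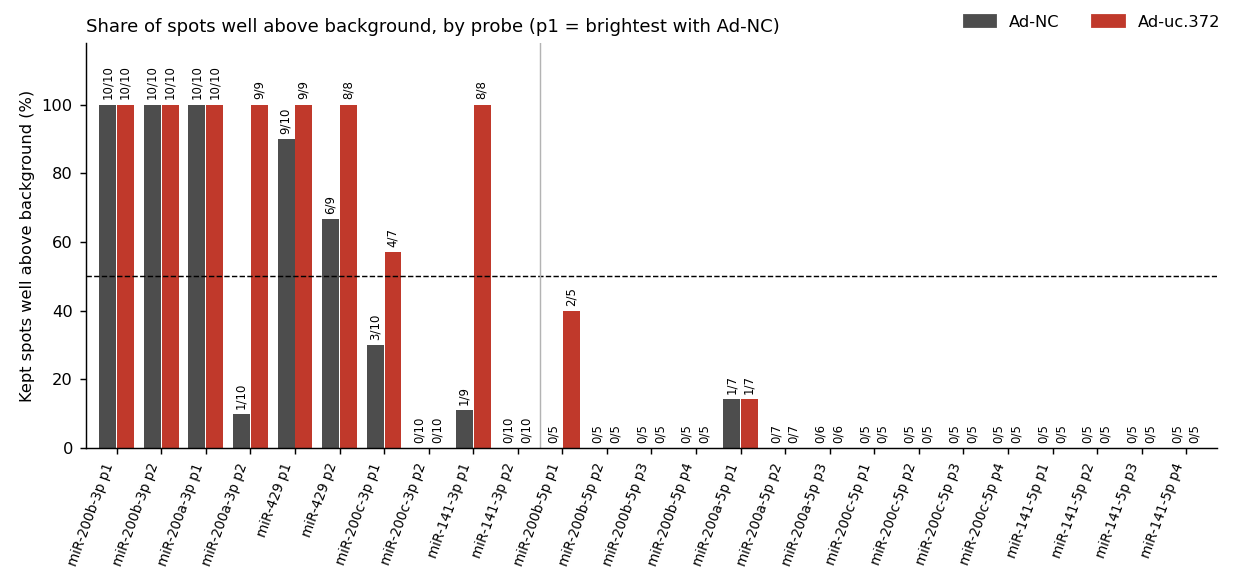
Share of kept spots flagged as well above background (percent, bars from 0) for each probe of the 5 members, left of the grey line, and of the 4 opposite arms, right of it, with flagged over kept spots above each bar. The dashed line marks 50%; the probes of miR-200b-3p and miR-429 pass it on both arrays, and those of the opposite arms on neither.

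To ask whether the family differed with Ad-uc.372, spots under the limit were raised to it, signals were set to log2, and each array was scaled by its 75th percentile, taken over those probes that both arrays measured. That reference was brighter with Ad-uc.372, at 356.5, than with Ad-NC, at 304.6. The study set a threshold of 1.5-fold together with a t-test, and 1 array per condition allows the fold alone. None of the 3 members measured on both arrays reached 1.5-fold in either direction. Among all 229 miRNAs measured on both arrays, 9 (3.93%) did. The log2 difference, Ad-uc.372 minus Ad-NC, was 0.06 for miR-200b-3p, with a combined spot SD of 0.23 (the square root of the summed spot variances of both arrays, a technical error). It was 0.12 with an SD of 0.28 for miR-200a-3p and 0.36 with an SD of 0.37 for miR-429. This SD is the spread of single spots and not the error of a mean, and the error between cultures is unknown.

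Where both probes of a miRNA were measured on both arrays, their differences had the same sign. Those of miR-200b-3p were 0.04 and 0.09, and those of miR-429 were 0.27 and 0.44. For miR-429, 1 spot of the first probe and 3 of the second lay under the limit with Ad-NC and were raised to it. Before scaling and raising, the mean signals with Ad-uc.372 were 1.20 and 1.25 times those with Ad-NC for the probes of miR-200b-3p, 1.27 times for the measured probe of miR-200a-3p, and 1.45 and 1.73 times for the probes of miR-429.

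All 3 members lay in the upper part of the differences. The median of the 3 was 0.12, and that of all 229 miRNAs was -0.17. miR-429 had the 7th highest difference, with 6 miRNAs above it, while 32 lay above miR-200a-3p and 43 above miR-200b-3p. Set against the median of all, the members were higher by 0.23 for miR-200b-3p, 0.29 for miR-200a-3p and 0.52 for miR-429 on the log2 scale. The sign of a difference depends on the scaling, but a shift common to all miRNAs leaves this order as it is. The miRNAs with the nearest differences over these 2 arrays were miR-19b-3p (0.06), miR-5739 (0.06) and miR-1229-5p (0.05) for miR-200b-3p. They were miR-6858-5p (0.11), miR-25-3p (0.13) and miR-21-3p (0.14) for miR-200a-3p, and miR-30c-5p (0.36), miR-4465 (0.35) and miR-192-5p (0.34) for miR-429.

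**Figure D3:**
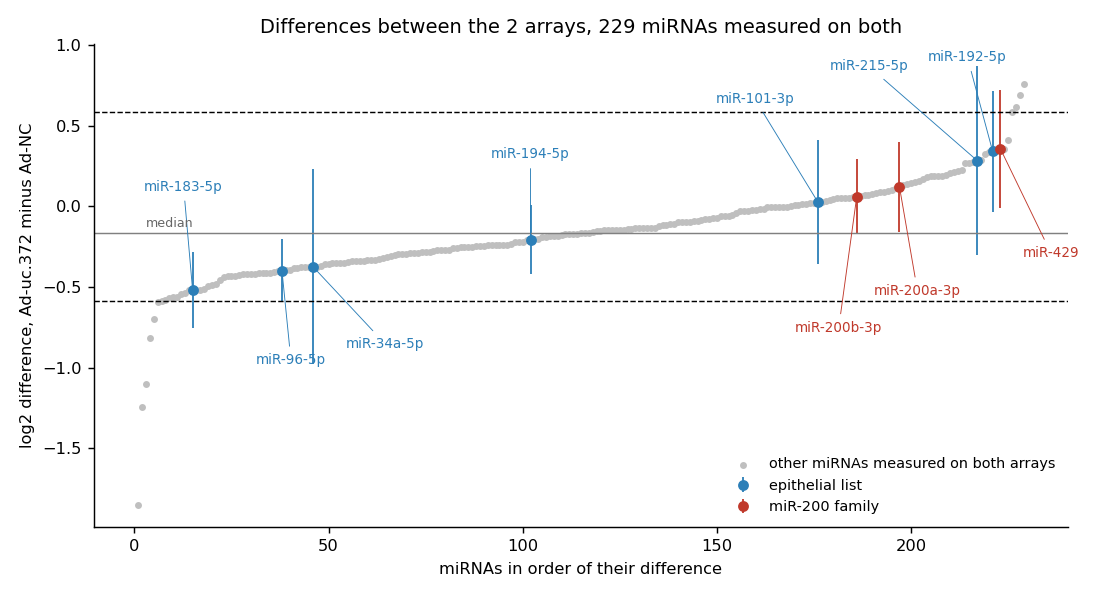
The 229 miRNAs measured on both arrays in order of their log2 difference (Ad-uc.372 minus Ad-NC, vertical axis), with the 3 measured members of the miR-200 family in red and the 7 measured miRNAs of the epithelial list in blue. Bars are the combined spot SD, a technical error, dashed lines mark 1.5-fold and the grey line is the median of -0.17; the 3 members lie between 0.06 and 0.36, inside the dashed lines and above the median.

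Other miRNAs of epithelial identity were read from a list of 12 that are known from epithelial cells or act on ZEB1, ZEB2 or other factors of the epithelial-mesenchymal transition. Of these, 7 were well above background on both arrays, where 8.98% of all miRNAs were, and 5 on neither. None of the 7 reached 1.5-fold, as 3.93% of all measured miRNAs did. Their median difference was -0.21, with 3 above 0 and 4 below. Among all 229 measured miRNAs the median was -0.17, with 60 above 0 and 169 below. miR-192-5p and miR-215-5p, which share a seed with each other and act on ZEB2, had differences of 0.34 and 0.28, with spot SDs of 0.37 and 0.59. In the deposited log2 values the median difference of the 279 miRNAs measured was -0.26. There miR-192-5p was lower with Ad-uc.372 (5.78) than with Ad-NC (5.95), while miR-215-5p was higher (3.02 against 2.78). miR-194-5p, the partner of both in their clusters, had -0.21. miR-183-5p and miR-96-5p, of a cluster known from sensory organs, had -0.52 (by 1 of 4 probes) and -0.40, while their neighbour miR-182-5p was not well above background. miR-101-3p, which acts on EZH2, had 0.03, and in the deposited log2 values it was lower with Ad-uc.372 (1.60) than with Ad-NC (1.68). miR-34a-5p, a target of p53 that acts on SNAI1, had -0.37 with a spot SD of 0.60. The 5 not well above background were miR-205-5p, which also binds the mRNAs of ZEB1 and ZEB2, miR-203a-3p of the epidermis, miR-375, miR-30a-5p and miR-182-5p, of which the flag per miRNA detected miR-182-5p with Ad-uc.372.

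The labelled cell type was checked against markers of hepatocytes. Of 5 such miRNAs, miR-192-5p, miR-194-5p and miR-148a-3p were well above background on both arrays, and miR-122-5p, the defining miRNA of hepatocytes, and miR-885-5p were on neither. miR-192-5p and miR-194-5p are also on the epithelial list. Of all miRNAs, 8.98% were well above background on both arrays. Of 4 markers of fibroblasts or smooth muscle (miR-143-3p, miR-145-5p, miR-199a-3p and miR-214-3p) and 4 of blood cells (miR-451a, miR-142-3p, miR-223-3p and miR-150-5p), none was well above background on either array, and the flag per miRNA detected none of them. Of all miRNAs, 9.26% were well above background with Ad-NC and 10.2% with Ad-uc.372, and the flag detected 11.6% and 12.5%. With shares this low, none among so few markers does not show that such cells were absent.

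The start sites of both host genes were searched for the E-box that ZEB1 and ZEB2 are known to bind. The motif was CACCTG or its reverse complement CAGGTG, so that both strands were covered, in the 300 bases from 250 before to 50 after each start site in RefSeq on GRCh38.p14. MIR200BHG had 2 matches, starting 102 and 58 bases before the start site, and MIR200CHG had 1, starting 78 bases before it. Of 35116 such windows in the table, 20.6% held at least 1 match and 3.49% at least 2. The surrounding bases are given on the plus strand, on which both genes lie, with the motif in capitals.
MIR200BHG, chr1:1162763-1162792: gcccaggggacaCACCTGtcgggggccagg
MIR200BHG, chr1:1162807-1162836: agcgggagctcgCACCTGtgtggggcgggg
MIR200CHG, chr12:6963155-6963184: ggcaggaggacaCACCTGtgcgcagggtgg
A match describes these letters and is no evidence of binding. The host gene transcripts, the primary transcripts and the mRNAs of ZEB1 and ZEB2 were not measured on these arrays.

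**Figure D4:**
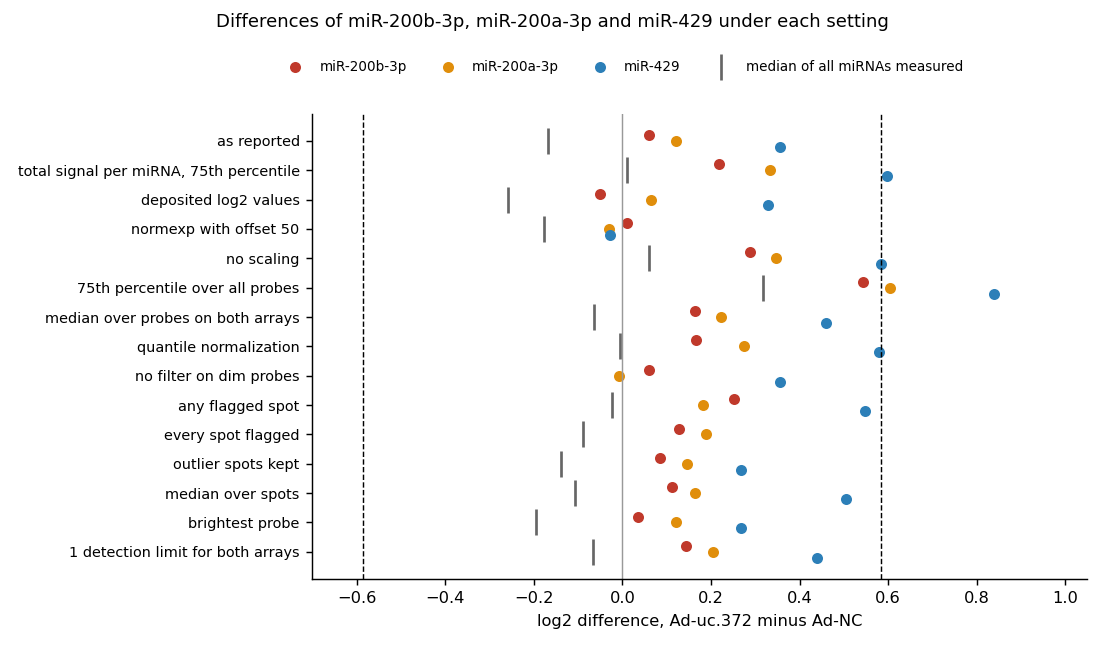
The log2 difference (Ad-uc.372 minus Ad-NC) of miR-200b-3p, miR-200a-3p and miR-429 under the reported setting and each alternative, with the median of all miRNAs measured as a grey tick (not drawn without a filter on dim probes, where most miRNAs lie at the limit). Dashed lines mark 1.5-fold; miR-429 has no value when every spot must be flagged, and the 3 members lie to the right of the median wherever it is drawn.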

How the data were processed

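The authors labelled RNA of HepG2 cells with Cy3 and used the human miRNA Microarray V21.0 of Agilent, 1 array for Ad-NC and 1 for Ad-uc.372. The deposited scanner files hold spot intensities from Agilent Feature Extraction (10.10 per the labels, 11.5.1.1 per the file headers), background-subtracted and not normalized between arrays, with flags for detection, saturation and outliers. The authors also deposited log2 values per miRNA, normalized with GeneSpring GX, which served as an alternative. No spot was saturated. Spots marked as outliers were left out, 1273 with Ad-NC and 1657 with Ad-uc.372, of which 2 and 9 were spots of the miR-200 family. Spots of a probe were averaged on the log2 scale, and the probes of a miRNA that both arrays measured were then averaged to give its difference. Where 1 array alone measured a miRNA, a bound was computed from its brightest probe. The steps were tested on simulated data, with changes set only in miRNAs far above the limit and the same limit for both arrays. That simulation did not cover members near the limit, unequal limits or differences as small as those reported. The members and lists were chosen with earlier results of these data known. The miRNAs named were the members, their opposite arms, miRNAs of the same seed, the listed miRNAs, and the 3 nearest differences for each measured member. Of the alternatives, 14 were listed at the start and 1 was added after the values were seen. Python 3.11.15, numpy 2.4.6, pandas 2.3.3, matplotlib 3.10.9, R 4.3.3 and limma 3.58.1 (normexp) were used.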

Additional observations from a re-analysis of the deposited data

How the results depend on the processing

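No paired analysis was possible because only 1 array was made per condition, and for the same reason no replicate could be left out and no block for slide or scan, which both arrays share, was fitted. The 3 members measured with Ad-NC became 5 with the total signal per miRNA or the deposited log2 values. Detection in both was the software's flag per miRNA, so this is a single result. They also became 5 when any flagged spot sufficed. All these settings ask for less before a miRNA counts as detected. With every spot flagged the members were 2 with Ad-NC and 4 with Ad-uc.372. With 1 limit for both arrays, the alternative added afterwards, they were 3 and 4. miR-200c-3p was the member not counted with Ad-uc.372 in both. Of all miRNAs, 229 were measured on both arrays as reported and 279 by the flag per miRNA. They were 270 when any flagged spot sufficed, 195 with every spot flagged and 221 with 1 limit. The count past 1.5-fold, 0 as reported, was 1 with the total signal per miRNA (miR-429, at 0.60) and 2 with the 75th percentile over all probes. That percentile added 0.48 to every difference, to 0.54 for miR-200b-3p, 0.60 for miR-200a-3p and 0.84 for miR-429. With normexp, whose offset of 50 shrinks differences of dim probes, miR-429 was at -0.028. The sign was positive for miR-200b-3p in 13 of 14 alternatives, with -0.050 from the deposited values, for miR-200a-3p in 12 of 14, with -0.029 from normexp and -0.0075 without a filter, and for miR-429 in 12 of 13. Against the median of all miRNAs measured, miR-200b-3p was higher by 0.17 to 0.28, miR-200a-3p by 0.15 to 0.32 and miR-429 by 0.15 to 0.61 over the alternatives with a filter on dim probes. miR-200c-3p and miR-141-3p had a difference only where less was asked for, at -0.039 and 0.44 with the total signal, -0.31 and 0.17 with the deposited values, -0.26 and -0.011 with probes kept on a single flagged spot, and -0.49 and -0.36 without a filter. On the whole array 9 of 229 measured miRNAs passed 1.5-fold as reported. The counts were 30 of 279 with the total signal and 32 of 279 with the deposited values. They were 37 of 229 with the percentile of all probes, 3 of 229 with normexp and 15 of 2549 without a filter. The median of all miRNAs moved by 0.48 with that percentile, -0.35 without a filter, where most miRNAs lie at the limit, 0.23 without scaling, 0.18 with the total signal, 0.16 with quantile normalization, 0.14 when any flagged spot sufficed, 0.10 with the median or with 1 limit, and -0.091 with the deposited values. Signal over background limits miR-200c-3p, miR-141-3p and the opposite arms, for which a difference below the limit could not be measured. It also limits miR-429, which had spots of both probes under the limit with Ad-NC.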

Other observations

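A list of 10 miRNAs linked to the mesenchymal state included the 4 markers of fibroblasts or smooth muscle above. Of the 10, 1 was well above background on both arrays, a share near the 8.98% of all miRNAs on the array. A further 1 was with Ad-uc.372 only, and 8 on neither. The first was miR-21-5p, whose log2 difference was 0.76 and whose spot SD was 0.92. At 1.69-fold it passed 1.5-fold, and it had the highest difference of the 229 miRNAs and is also abundant in many carcinoma lines. It stayed under 1.5-fold in the deposited log2 values, at 9.24 with Ad-NC and 9.45 with Ad-uc.372. Its total signal per miRNA before scaling, 1579 and 2291, also differed by less than 1.5-fold. The second was miR-222-3p, whose bound was under 1-fold. The 8 not well above background included miR-10b-5p, miR-155-5p, miR-100-5p and miR-221-3p, of which the flag per miRNA detected miR-221-3p on both arrays.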
